A study of Caenorhabditis elegans with 4 samples.

Results

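The regions described here are the 514 peaks of PHA-4 binding on chromosome II of Caenorhabditis elegans. They were chosen by position alone, as the rows of the series' combined peak list that lie on II, and they are 514 of the 3890 peaks in that list. The series held 2 PHA-4 ChIP samples and 2 Input samples. All 4 came from OP37 hermaphrodites at the fourth larval stage (L4), grown at 20 °C. Every sample, Input included, carried the unc-119(ed3) mutation on III and the transgene wgIs37, in which unc-119(+) accompanies pha-4 fused to TY1, EGFP and FLAG tags. The transgene was introduced by bombardment, and the labels state that the fusion protein follows the place and time of pha-4 expression. No sample without the tag is among the 4. Antibodies against the fluorescent tag pulled down the chromatin. Each ChIP library has a peak list of its own, from another caller than the combined list. The labels do not say whether the 2 libraries came from separate cultures, so any spread between them may be technical. No Input peak list was used here, the lists carry no read counts, and the depth of each library is unknown.

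PHA-4 is the worm member of the FoxA family, transcription factors with a forkhead domain that bind DNA in regulatory regions and can open compacted chromatin. It is needed for the pharynx to form, and it acts later in the pharynx, the gut and other digestive tissues. Worm autosomes have a centre rich in conserved, highly expressed genes and 2 arms that are richer in repeats and recombine more often, so a factor's profile is usually read along the whole chromosome. Chromatin came from whole animals, so binding in more cells and stronger binding per cell cannot be told apart. Positions refer to WormBase WS220. Neither genes nor sequences of WS220 were used here, so no gene is named.

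The peaks on II were mostly short, with a tail of wide regions. Widths ran from 129 to 3195 bp with a median of 398 bp and an interquartile range of 315 to 586.5 bp. Together the peaks covered 273.8 kb, or 1.79% of the chromosome, whose length was taken as the largest coordinate listed on it, 15273915. Peaks over 300 and up to 500 bp wide were the commonest class, 252 of the 514 (49.0%), and 86 (16.7%) were 300 bp wide or less. At the other end, 40 peaks (7.78%) were wider than 1 kb and 11 of these were wider than 2 kb. The 40 held 23.7% of all bases under peaks on II. In the whole combined list 5.76% of peaks were wider than 1 kb.

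Each combined peak carries the q-value that the authors' caller, PeakSeq, gave it, used here to rank peaks within the list. On II the q-values lay between 9.94e-106 and 0.00977, and their median was 0.000551. The chromosome, with 514 of the 3890 peaks, held 11 of the 100 peaks of lowest q in the whole list and 116 of the first 1000. It held 230 of the first 1945, or 44.7% of its peaks. All 3 counts were slightly below its share of the list, which was not tested. Peaks of low q were wide. The 50 of lowest q on II had a median width of 788 bp (328 to 3195 bp), and 20 of them were wider than 1 kb. The 100 peaks from ranks above 100 to 200 had a median of 424.5 bp, and the last 114 peaks had a median of 310.5 bp. Over the 514 peaks, Spearman's rho between rank and width was -0.51. Both values come from 1 call on the same reads, so this describes the list only.

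**Figure D1:**
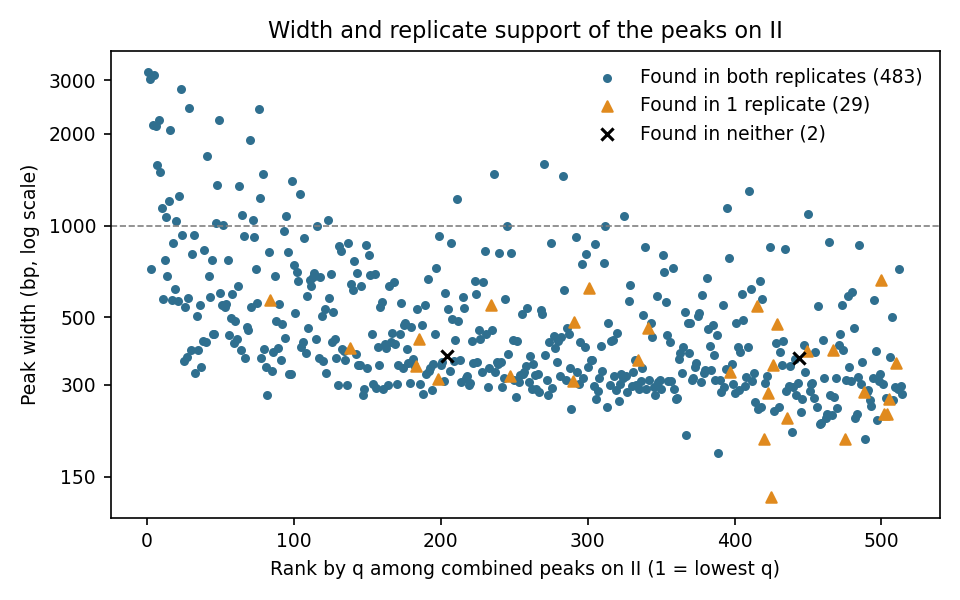
Width of each combined peak on II (bp, log scale) against its rank by q on that chromosome, with symbols for peaks overlapped by both replicates, by 1 or by neither. Most of the peaks above the dashed line at 1000 bp lie at the low-q end, and all 40 were found in both replicates; peaks missed by a replicate are mostly at later ranks and under 700 bp wide.

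The replicate lists were set beside these peaks to see what each library found alone. A peak counted as found when at least 1 bp overlapped. Replicate 1 had a peak in 501 of the 514 (97.5%, exact Clopper-Pearson 95% interval 95.7% to 98.6%) and replicate 2 in 494 (96.1%, 94.1% to 97.6%). Both replicates found 483 (94.0%, 91.5% to 95.9%), where 88.6% of the whole combined list was found in both. Both libraries also went into the combined list, so this overlap is not independent support. Intervals here and below cover counting error over peaks and treat peaks as independent, which neighbours are not.

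Support fell with rank, though slowly. All of the 50 peaks of lowest q on II were found in both replicates, as were 49 of the next 50 and 96, 95 and 96 of each following 100. Of the last 114, 97 were found in both (85.1%, 77.2% to 91.1%). Of the 29 peaks with a single replicate, 18 were found in replicate 1 and 11 in replicate 2, and 9 and 7 of these lay beyond rank 400 on II. The one of lowest q was 1234830 to 1235398 (q = 1.24e-06), which replicate 1 alone held, inside a cluster on the left arm described below. Among those that replicate 2 alone held it was 15213865 to 15214210 (q = 0.000121), close to the right end. Neither replicate found 2 peaks (0.389%, 0.0472% to 1.40%, where the whole list gave 1.41%). They were 13813822 to 13814194, 373 bp wide with q = 0.000235, and 12810994 to 12811362, 369 bp wide with q = 0.00572. Both lie on the right arm.

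Where each replicate placed 1 peak in a combined peak, the positions lay close. Of these 336 combined peaks on II, 213 (63.4%) had replicate midpoints within 50 bp of each other. The median distance was 32.5 bp, the 90th percentile was 136 bp and the largest was 437 bp. Replicate peaks are of nearly fixed width, 316 bp in 3091 of the 3093 on II in replicate 1 and 320 bp in 3050 of the 3052 in replicate 2. The distance between midpoints was therefore well under the width of a peak in most cases. Both peaks had to meet the same combined peak, itself called from both libraries, so the way the 336 were taken limits this distance.

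The widest regions on II, those over 2 kb, resolved into several replicate peaks. Each of the 11 combined peaks over 2 kb held at least 4 peaks of replicate 1 and at least 3 of replicate 2. They held on average 4.82 peaks of replicate 1 (SD 0.75, n = 11 combined peaks) and 4.73 of replicate 2 (SD 1.10, n = 11 combined peaks). Inside them, neighbouring midpoints were a median of 541 bp apart in replicate 1 and 529 bp in replicate 2. The closest pair of midpoints anywhere on II was 199 bp apart in both lists, so detail finer than that is not resolved. Of the 53 replicate 1 peaks in these regions, 47 overlapped a replicate 2 peak, and 49 of the 52 replicate 2 peaks overlapped one of replicate 1. With peaks 316 or 320 bp wide and this close together, most would overlap wherever they lay in these regions. The 29 combined peaks over 1 and up to 2 kb wide held 2.59 and 2.38 peaks on average (SD 0.95 and 0.94, n = 29 combined peaks), and of these 3 held a single peak of replicate 1 and 5 a single peak of replicate 2. Combined peaks over 500 and up to 1000 bp wide held 1.42 and 1.34 peaks on average (SD 0.54 and 0.57, n = 136 combined peaks), and those over 300 and up to 500 bp held 1.03 and 1.02 (SD 0.33 and 0.31, n = 252 combined peaks).

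The 10 combined peaks of lowest q were all found in both replicates. They had a median width of 2135 bp (723 to 3195 bp), and 7 lay on the right arm, 2 in the centre and 1 on the left arm. Of those on the right arm, all but the first by q lay between 10541892 and 11757261. That is inside the run of densely filled 1-Mb bins described below, which ends at 12000000. The first, 14404928 to 14408122 (q = 9.94e-106), was also the widest on II. Replicate 1 placed peaks 182, 599, 1328, 2539 and 2910 bp from its left edge, and replicate 2 at 264, 505, 1323, 1987 and 2899 bp. Counted from the left, the middle and the last of these lie within 11 bp of each other, while the fourth differ by more than a peak's width. The second, 5335861 to 5338898 (q = 1.82e-37), is 3038 bp wide and held 5 peaks of each replicate. Next by q, 11756539 to 11757261 (q = 2.01e-34), was much shorter at 723 bp and held 1 peak of each replicate.

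The 2 after that, 10547578 to 10549716 (q = 4.82e-31) and 10541892 to 10545017 (q = 3.83e-29), belong to the densely bound stretch of the right arm. A group on the right arm followed, made up of 11634138 to 11636268 (q = 2.79e-24), 11618935 to 11620520 (q = 6.83e-19) and 11546187 to 11547686 (q = 2.52e-16). Between the last 2 of these came 6346619 to 6348839 (q = 6.22e-17), in the centre. The only left-arm peak of the 10 was 3958229 to 3959367 (q = 3.39e-16), 1139 bp wide, with 1 peak of replicate 1 and 3 of replicate 2.

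The 10 widest peaks shared 6 with this group. The other 4 were 6889472 to 6892289 (2818 bp), 8478349 to 8480776 (2428 bp), 6561316 to 6563723 (2408 bp) and 10555363 to 10557584 (2222 bp). Their ranks on II ran from 23 to 76. Of the 10 widest, 5 lay in the centre, 5 on the right arm and none on the left arm.

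The replicate lists ordered the regions differently. Their score per peak is not described and is capped, so ranks follow the score and, at the cap, the deposited peak number. On II 751 replicate 1 peaks and 745 replicate 2 peaks stood at the cap, and among these the order rests on that number alone. They include every peak on II counted below among the first 1000 or the first 3890 of its whole list. In both replicates the first peak on II ranked 12 in its whole list and lay in the combined peak 10563322 to 10563681 (q = 1.20e-11), which ranked 203 of 3890 by q. In replicate 1 this peak was 10563436 to 10563570, or 135 bp wide, and in replicate 2 it was 10563453 to 10563564, or 112 bp. These are among the 4 replicate peaks on II that are not of the usual width. The others are 11756893 to 11756985 of replicate 1, inside the combined peak 11756539 to 11757261, and 14154415 to 14154546 of replicate 2, rank 28. Over the 483 peaks found in both replicates, Spearman's rho between the rank by q and the best replicate rank was 0.39 for replicate 1 and 0.40 for replicate 2. Between the 2 replicates it was 0.40. These are correlations across peaks of the same 2 libraries, whose independence the labels do not state.

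Peaks were unevenly spread along II. Each of the 15 full 1-Mb bins held between 12 and 50 combined peaks, and the median was 39. The first 5 bins from the left end held 19, 13, 16, 12 and 23 peaks. The sixth, 5000001 to 6000000, held 50, and from there to 12000000 each bin held 39 to 50. The next 3 bins held 29, 31 and 39, and the last, partial bin of 273915 bp held 9. In smaller bins of 250 kb, counts went up stepwise through 4750001 to 5500000, with 9, 11 and 16 peaks, and reached 21 in 6750001 to 7000000, the highest of 61 full bins. Just 1 such bin was empty.

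**Figure D2:**
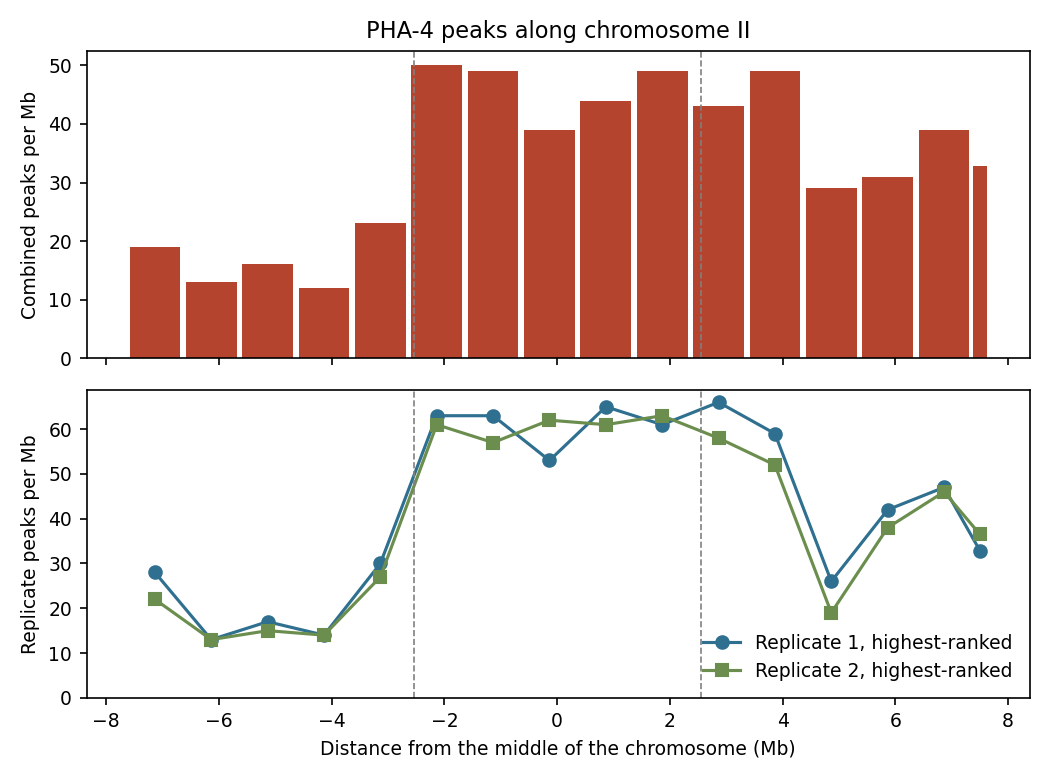
Peaks per Mb in 1-Mb bins along II, against distance from the middle of the chromosome (Mb), for the combined list (upper panel, bars) and for the highest-ranked peaks of each replicate (lower panel, points joined by lines). Dashed lines mark the central part; the 4 leftmost bins hold 12 to 19 combined peaks, and the 7 bins from near the left edge of the central part onward hold 39 to 50.

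With the chromosome cut into 3 equal parts, 87 combined peaks lay on the left arm, 233 in the centre and 194 on the right arm. The densities were 17.1, 45.8 and 38.1 peaks per Mb. The central part thus held 45.3% of the peaks (41.0% to 49.7%) on 33.3% of the length (exact binomial test, two-sided, adjusted p = 5.09e-08 by the Benjamini-Hochberg method over 6 tests). Over all nuclear chromosomes the share was 43.3%. The left arm held 31.0% of the arm peaks (87 of 281, 25.6% to 36.7%), against an even 50% (adjusted exact binomial p = 9.29e-10). Both results kept their direction and their call under every alternative tried for them, all of which cut II evenly about its middle. The dense run of 1-Mb bins, however, ended at 12000000, past the end of the central part at 10182610. The right arm as cut here thus took in some of that run.

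The arms of II were less even than those of the other autosomes. The left part held 31.0% of arm peaks on II, against 56.1% on I, 47.9% on III, 52.6% on IV and 61.6% on V. Fisher's exact test of II against these 4 together, at 55.1%, gave an odds ratio of 0.365 (two-sided p = 6.96e-14). Without V the others stood at 51.2% (Fisher's exact p = 2.41e-09). This comparison was chosen after the data were seen, is not adjusted and treats peaks as independent. X, which is not an autosome, had 46.9%.

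The replicate lists gave a like profile. Of their highest-ranked peaks (the first 3890 of each whole list, to match the length of the combined one), 656 of replicate 1 and 618 of replicate 2 lay on II. All of these stood at the cap of the score, so the deposited peak number set which were taken. Replicate 1 had 108 of these on the left arm, 308 in the centre and 240 on the right arm. Replicate 2 had 100, 302 and 216. The left share of the arms was thus 31.0% and 31.6%. In the whole lists, which hold many peaks of lower rank, it was 39.6% and 41.7%. Across the 15 full 1-Mb bins, Spearman's rho of the combined count with the count of highest-ranked peaks was 0.89 for replicate 1 and 0.86 for replicate 2. All bins come from the same 2 libraries, so this is a description.

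Width, q and replicate support were also counted by arm. On the left arm 4 of 87 peaks (4.60%) were wider than 1 kb, in the centre 22 of 233 (9.44%) and on the right arm 14 of 194 (7.22%). Of the 50 peaks of lowest q, 7 lay on the left arm (8.05% of its peaks), 18 in the centre (7.73%) and 25 on the right arm (12.9%). Over the 1945 peaks of lowest q in the whole list the order was another, with 48.3% of the left-arm peaks among them, 43.3% of the central ones and 44.8% of the right-arm ones. The share found in both replicates was 92.0% on the left arm (84.1% to 96.7%), 96.6% in the centre (93.3% to 98.5%) and 91.8% on the right arm (87.0% to 95.2%), with intervals that overlap. Among all replicate 1 peaks on II, 38.2% on the left arm, 51.0% in the centre and 47.4% on the right arm overlapped a replicate 2 peak. No test was made between the 3 parts for these measures.

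The combined peaks reached almost to both ends of the chromosome. The first was 24457 to 24805 and the last 15265724 to 15266800, and the outermost replicate peaks began at 18745 and ended at 15273915. Between neighbouring midpoints the median gap was 15438.5 bp, with an interquartile range of 3194 to 38669 bp. Of 513 gaps, 160 (31.2%) were within 5 kb and 29 were longer than 100 kb. Neighbouring edges were never closer than 205 bp, and in 40 cases they were under 500 bp apart.

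The 5 longest stretches without a combined peak all lay on the left arm. The longest, 1663895 to 2194758, ran for 530.9 kb. Its midpoint-to-midpoint gap of 531145 bp was longer than the longest on any other chromosome, where these ran from 284573.5 bp on IV to 504590 bp on I. It was not free of replicate peaks. Replicate 1 had 40 peaks there and replicate 2 had 39, or 75.3 and 73.5 per Mb, against 202.5 and 199.8 per Mb over the whole of II. Few of them were of high rank, 1 and 2 among the highest-ranked 3890, and 7 of the 40 overlapped a replicate 2 peak. A single peak of 295 bp parted it from the second longest stretch, 1386769 to 1663599 (276.8 kb). The next were 2974134 to 3209262 (235.1 kb), 3297033 to 3518814 (221.8 kb) and 873692 to 1086579 (212.9 kb).

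About as many peaks on II stood alone as had near neighbours. When peaks with less than 5 kb between their edges were joined, 252 (49.0%, 44.6% to 53.4%) stood alone and 262 (51.0%) fell into 97 groups. Most groups were small, 61 pairs and 22 of 3 peaks. Those of 5 or more numbered 7 and held 46 peaks (8.95%, 6.63% to 11.8%), where 12.2% of the whole combined list lay in such clusters. By chromosome that share ran from 0% on I to 20.6% on V. The 46 peaks had a median width of 638 bp, against 356 bp for the 252 that stood alone. Of the 46, 44 (95.7%, 85.2% to 99.5%) were found in both replicates, against 236 (93.7%, 89.9% to 96.3%) of those alone. Joining under 2 kb left 4 such clusters with 22 peaks, and joining under 10 kb gave 14 with 94.

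The cluster on the left arm, 1233067 to 1246350, was the only one of the 7 with combined peaks that 1 replicate lacked. It held 7 peaks of 356 to 1082 bp over 13.3 kb, and both replicates found 5 of them. The missing ones, 1234830 to 1235398 and 1237392 to 1237934, had peaks of replicate 1 alone. Of its replicate 1 peaks 5 were among the highest-ranked 3890, and of its replicate 2 peaks 1. The other 6 clusters were found peak by peak in both replicates.

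The centre held 4 clusters. The shortest, 5330061 to 5338898, was 8.84 kb long and led up to the second peak by q, with 4 peaks of 634 to 816 bp to the left of that 3038-bp peak, and 67.0% of it was covered. At 5898951 to 5912492 there were 5 peaks, led by 5898951 to 5899571 (q = 5.69e-13), and 23.3% was covered. The fullest by number, 6826745 to 6845133, held 9 peaks over 18.4 kb, none with q below 8.30e-08. It also held 22 peaks of replicate 1 and 21 of replicate 2. At 8124778 to 8138282 there were 6 peaks, with 3 of them wider than 1 kb and 41.4% of the cluster covered.

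The clusters on the right arm contrasted in form. The one at 14810548 to 14822768 was made of 7 short peaks of 302 to 440 bp, which covered 21.3% of its 12.2 kb, with q-values from 1.14e-05 to 0.00166. Of its peaks 6 held a single peak of each replicate, and the other, 14819236 to 14819537, held 2 of replicate 1 and 1 of replicate 2. The one at 10541892 to 10557584 was made of 7 peaks of 384 to 3126 bp, which covered 69.1% of its 15.7 kb. It held 26 peaks of replicate 1, of which 21 overlapped a replicate 2 peak, and 25 of replicate 2. Peaks as crowded as these would often overlap wherever they lay in the cluster.

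**Figure D3:**
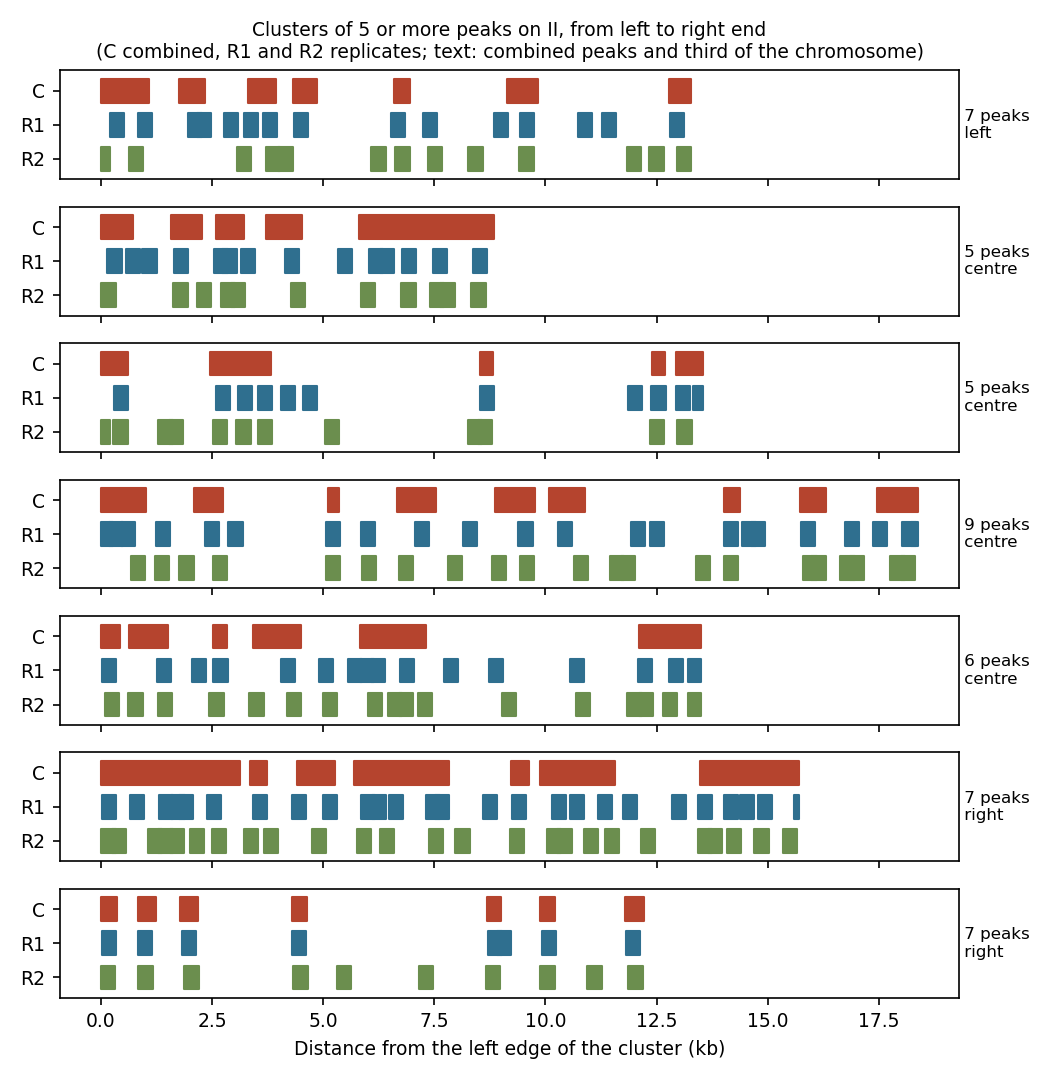
The 7 clusters of 5 or more combined peaks on II, in order from the left end to the right end, with peaks of the combined list (C) and of replicates 1 and 2 (R1, R2) drawn to scale against distance from the left edge of each cluster (kb). The sixth row is the densely bound stretch, with 69.1% of its length covered, and the seventh is the row of short peaks, with 21.3% covered.

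This last but one cluster forms most of the densely bound stretch, which lies on the right arm as cut here but inside the dense run of 1-Mb bins. The fullest 35-kb window on II was 10522601 to 10557600, with 35.3% under combined peaks. The fullest window apart from it, 5311701 to 5346700, around the second peak by q, had 21.6%. Over 436 tiles of 35 kb along II the median was 0.886%, and 173 tiles had no covered base. Fullest windows on other chromosomes reached 18.8% on I, 20.2% on III, 20.7% on IV, 23.1% on X and 78.3% on V. That of II is thus second to that of V, and the order was not tested.

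The replicates had the same stretch covered to a like extent. The window was chosen by its coverage in the combined list, which both libraries went into, so this is not independent support. Replicate 1 had 41 peaks in the window, which covered 34.6%, and replicate 2 had 35, which covered 30.8%. That is 1.17 and 1 peaks per kb, against 0.203 and 0.200 per kb over the whole of II. Of these, 27 and 26 overlapped a combined peak, and 15 and 13 were among the highest-ranked 3890 of their lists. That is 36.6% and 37.1% of the replicate peaks in the window, against 21.2% and 20.2% over the whole of II, and 0.429 and 0.371 highest-ranked peaks per kb, against 0.0429 and 0.0405 over II. Their median rank in the window was 5780 in replicate 1 and 6366 in replicate 2.

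Its 10 combined peaks fall into 2 runs. The left run had 3 peaks, of 555, 200 and 770 bp. The third of them, 10529117 to 10529886 (q = 3.91e-15), held the best-ranked replicate 1 peak of the window, at rank 82. The middle one, 10528595 to 10528794 (q = 0.00455), was the one peak of the 10 that replicate 2 lacked. No combined peak followed over 10529887 to 10541891, where replicate 1 had 9 peaks and replicate 2 had 6. The right run is the cluster described above. Its peaks were 3126, 384, 872, 2139, 399, 1698 and 2222 bp wide. Their q-values were 3.83e-29, 0.00508, 0.00135, 4.82e-31, 0.00118, 2.28e-08 and 5.58e-08. The right run thus mixed 2 of the 5 peaks of lowest q on II with 3 at ranks 298, 305 and 431 of the 514, and the middle peak of the left run had rank 420. The best-ranked replicate 2 peak of the window, at rank 56, lay in the 2139-bp peak.

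**Figure D4:**
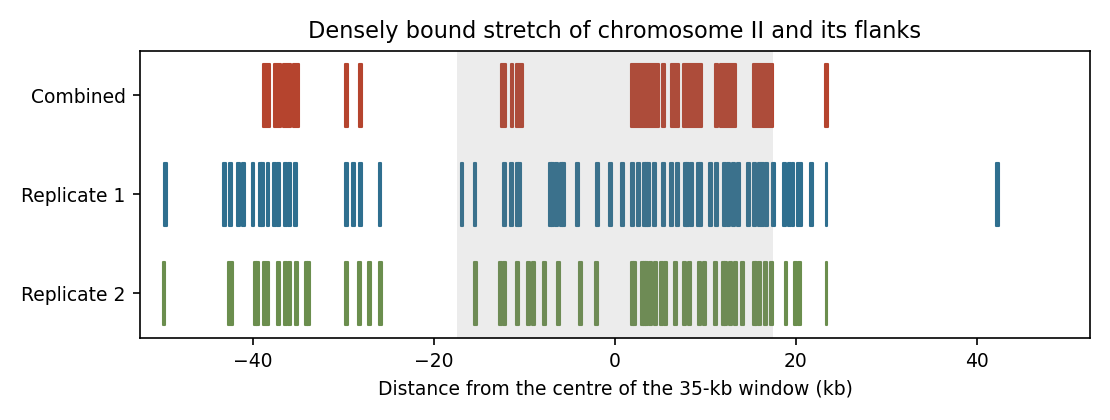
Peaks of the combined list and of each replicate within 52.5 kb on either side of the centre of the fullest 35-kb window on II (grey), against distance from that centre (kb). Combined peaks crowd the right of the window and cover 35.3% of it, against 1.03% of the 35 kb to its right and 10.2% of the 35 kb to its left.

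The flanks differed. The 35 kb to the left of the window were covered at 10.2% and held 6 combined peaks. Of these, 4 stood in a tight row at 10501227 to 10505105, with 718, 770, 876 and 570 bp, and all were found in both replicates. The 35 kb to the right were covered at 1.03% and held 1 combined peak. That was 10563322 to 10563681, whose replicate peaks were the first on II in both lists. Replicate 1 had 18 peaks in the left flank and 9 in the right, and replicate 2 had 17 and 4.

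Most replicate peaks on II had no combined peak. Replicate 1 listed 3093 peaks on II, of which 666 (21.5%, 20.1% to 23.0%) were overlapped by one, and replicate 2 listed 3052, of which 641 did so (21.0%, 19.6% to 22.5%). On the other nuclear chromosomes the shares were 24.7% and 23.9% (adjusted Fisher p = 0.000211 and 0.000856), so most replicate peaks there had none either. The next shares, between the replicates, are given for II only. Between themselves the replicates shared 1454 of the replicate 1 peaks (47.0%, 45.2% to 48.8%) and 1445 of the replicate 2 peaks (47.3%, 45.6% to 49.1%). Of the shared ones, 852 of replicate 1 (58.6%) and 849 of replicate 2 (58.8%) were absent from the combined list. Absence was rarer at high rank, an order that rests here on the deposited peak number because these peaks all stood at the cap. Of the first 1000 peaks of each whole list, 165 of replicate 1 lay on II and 158 (95.8%) had a combined peak, against 92.1% elsewhere. Those of replicate 2 on II numbered 168, and 156 (92.9%) had one, against 92.5% elsewhere.

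The highest-ranked exceptions were spread over the chromosome. In replicate 1 they were 5373252 to 5373567 (rank 428), 5399221 to 5399536 (rank 601), 7945148 to 7945463 (rank 729), 8561207 to 8561522 (rank 876) and 10300926 to 10301241 (rank 973). Replicate 2 overlapped the first 3 of these. In replicate 2 they were 4999171 to 4999490 (rank 268), 11675899 to 11676218 (rank 316), 7891289 to 7891608 (rank 554), 1084880 to 1085199 (rank 606) and 9591037 to 9591356 (rank 714), and replicate 1 overlapped all 5. The nearest combined peak was 289 bp away for 7891289 to 7891608, and 1381 to 52250 bp away for the other 9.

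Chromosome II was last compared with the other 5 nuclear chromosomes on replicate support, width and overlap with the combined list. The rule that chose the peaks used none of these, but overlap shares depend on how many peaks each list has on a chromosome. The share found in both replicates was 94.0% on II, against 87.8% elsewhere (2963 of 3376, 86.6% to 88.9%), with an odds ratio of 2.17 (Fisher's exact test, two-sided, adjusted p = 2.80e-05). V stood at 78.8%, and without it the others had 91.9% (adjusted Fisher p = 0.145), with I and X at 94.8% and 94.7%. The call was also lost when 50% of both peaks had to overlap, at 67.9% on II and 64.5% elsewhere (adjusted Fisher p = 0.180), and with midpoints within 200 bp, at 80.2% and 76.5% (adjusted Fisher p = 0.0861). With each replicate list limited to its first 3890 peaks the shares were lower, at 60.3% on II and 45.0% elsewhere, and the difference passed (adjusted Fisher p = 4.64e-10). That cut left V 568 and 559 replicate peaks for 1055 combined ones, and II 656 and 618 for 514. Fewer of the combined peaks on V could thus be found, and the setting was not tried without V.

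Peaks wider than 1 kb made up 7.78% of the combined peaks on II (5.62% to 10.45%), against 5.45% of those elsewhere (4.71% to 6.27%). The odds ratio was 1.46 and the adjusted Fisher p was 0.0498, just under the threshold of 0.05. It was not passed at 2 kb, with 2.14% on II and 1.10% elsewhere (adjusted Fisher p = 0.0641), nor without V, where the others had 5.82% (adjusted Fisher p = 0.125). Wider than 500 bp were 34.2% of peaks on II and 28.4% elsewhere (adjusted Fisher p = 0.0118).

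In the other direction, 427 of the 656 highest-ranked replicate 1 peaks on II (65.1%, 61.3% to 68.7%) met a combined peak, against 70.3% elsewhere (adjusted Fisher p = 0.0158, odds ratio 0.790). The share over all nuclear chromosomes was 69.4%. Highest-ranked here means first by deposited peak number among peaks at the cap, in both replicates. For replicate 2 it was 404 of 618 on II (65.4%, 61.5% to 69.1%), against 68.1% elsewhere (adjusted Fisher p = 0.189), with 67.7% over all. V had the highest shares, at 92.4% and 92.3%. Without it the others had 65.5% in replicate 1 (adjusted Fisher p = 0.855) and 63.1% in replicate 2 (adjusted Fisher p = 0.287), a share below that of II. I had the lowest, at 43.2% and 41.4%, and without it the others had 76.7% and 74.7% (adjusted Fisher p = 9.06e-09 and 8.69e-06). These shares are bound up with how many combined peaks each chromosome has. I had 309 combined peaks for 618 highest-ranked replicate 1 peaks, II 514 for 656 and V 1055 for 568. The tests do not separate such counts from how well the lists match.

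**Figure D5:**
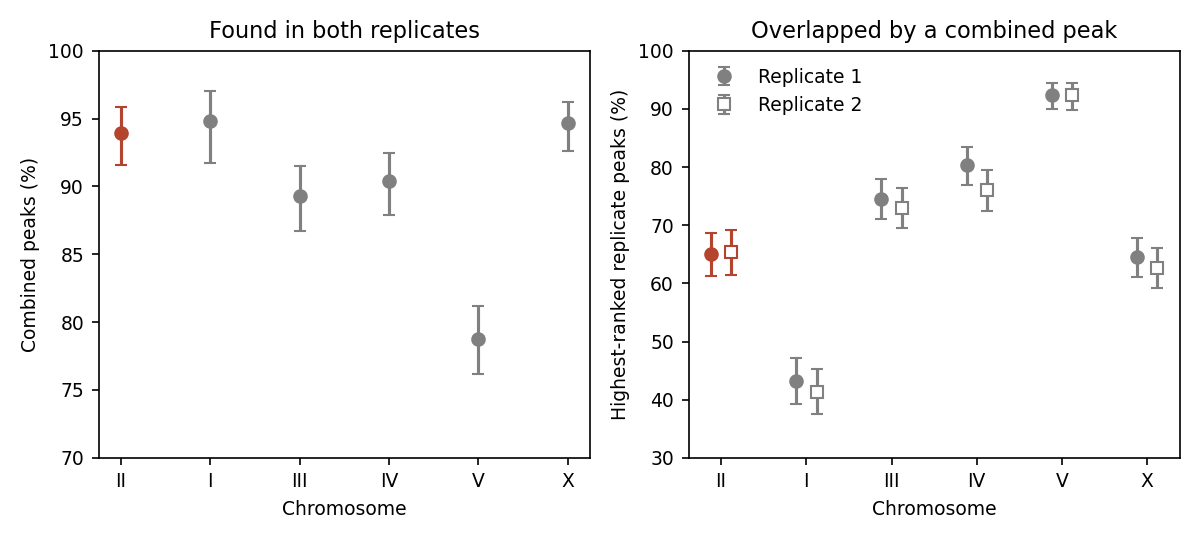
Left, combined peaks found in both replicates (%) and right, highest-ranked replicate peaks overlapped by a combined peak (%, circles replicate 1, squares replicate 2), by chromosome with II in red; bars are exact 95% intervals over peaks, and the axes start at 70% and 30%. On the left II, at 94.0%, lies with I and X and above V, and on the right it lies at 65.1% and 65.4%, close to X and between I and V.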

How the data were processed

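Peaks were analysed for 2 PHA-4 ChIP samples; the 2 Input samples were grouped by title and not analysed further. The combined list carries a q-value per peak, called with PeakSeq, per the file headers, and used here for ranking. The replicate lists carry a deposited score that the files do not describe, from a caller named spp_via_IDR, per the file headers. All give WS220 coordinates. Comment lines of the combined list record a liftover from a build not named there; of the 4 peaks they repeat, 2 lie on II, 10 and 19 bp to the left of their listed starts. The sources used here name no aligner or thresholds and do not say how Input was used. Depth is unknown.

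Peaks overlapping by at least 1 bp were called shared. Chromosome II was compared with the others by Fisher's exact test, its 3 equal parts by exact binomial tests, and p-values were adjusted over the 6 tests by the Benjamini-Hochberg method. Fullest windows were sought in steps of 100 bp. Positions named are the 10 combined peaks of lowest q, the 10 widest, clusters of 5 or more, peaks of the fullest window, those found in neither replicate, the 5 highest-ranked replicate peaks without a combined peak and the 5 longest gaps; others were chosen after their values were seen. The members and lists were chosen with earlier results of these data known. Scripts were tested on simulated data. Software was scipy 1.17.1, pandas 2.3.3, numpy 2.4.6 and matplotlib 3.10.9 under Python 3.11.15.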

Additional observations from a re-analysis of the deposited data

How the results depend on the processing

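The central and left-arm shares kept direction and call under all alternatives tried for them, each cut evenly about the middle of II. With a single replicate's highest-ranked peaks these shares ran from 47.0% to 48.9% and from 31.0% to 31.6%. The share found in both was 93.97% as reported. The share found in 1 given replicate, which cannot be lower, was 96.1% for replicate 2 and 97.5% for replicate 1, and kept the call. With replicate lists cut to the combined list's length the share found in both was 60.3%, against 45.0% elsewhere. It kept its call there, though V then had fewer replicate peaks than combined ones and no run left V out. It lost its call at 67.9% (50% of both peaks), 80.2% (midpoints within 200 bp), 97.4% (the 1945 peaks of lowest q, against 95.5% elsewhere) and, against chromosomes without V, 93.97%. Widths over 1 kb lost theirs at 2.14% (2 kb), 14.3% (the 1945 peaks of lowest q, against 10.0%) and, without V, 7.78%. The replicate 1 share in the combined list turned above the others among the first 1000 peaks, at 95.8% against 92.1%, and lost its call without V, at 65.1%. For replicate 2 the share turned above the others among the first 1000, at 92.9% against 92.5%, and without V, at 65.4%. It passed the threshold, below the others, at 45.0% (50% of both peaks), 53.2% (midpoints), 21.003% (whole list) and, without I, 65.4%. Peaks in clusters of 5 or more numbered 22 and 94 with joining under 2 and 10 kb, against 46. The fullest window was covered at 54.2% with 20 kb and 26.0% with 50 kb. The cause of these changes was not tested. The comparisons without V or I and the one without clusters were chosen after the data were seen. No paired analysis was possible because no Input peak list was used and the tests compare peaks, not samples. Unknown depth limits what absence from a list shows.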
